A study of Mus musculus with 4 samples.

Results

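The genes of cholesterol synthesis and of its control by SREBP2 were followed in cervical motor neurons (MNs) with and without PATZ1, a zinc finger protein that binds chromatin. The members were 8 of the 23420 gene symbols in the count files, and they were picked by name for their roles, with earlier results of these data known. They comprised 6 enzymes (*Hmgcs1*, *Idi1*, *Fdps*, *Sqle*, *Lss* and *Dhcr7*), the sterol sensor partner *Insig1* and the transcription factor gene *Srebf2*, which codes for SREBP2. RNA-seq was available from 2 WT libraries (genotype wild type) and 2 *Patz1* KO libraries (genotype *Patz1* -/-), all made from total RNA after depletion of ribosomal RNA. Both groups came from E14, a line of mouse embryonic stem cells (mESCs), which had been grown as embryoid bodies and patterned from day 2 with 1 µM retinoic acid and 0.5 µM SAG, an agonist of smoothened. The KO cells were made with CRISPR, in which single clones are grown out, and the labels do not say which clone was sequenced or whether the KO libraries came from the same clone. In their titles the samples are called ESCs, but the labels of source and cell type give MNs.

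Animal cells build cholesterol from acetyl-CoA, first through mevalonate and isoprenoid units, then through squalene, and last through the sterol ring itself. SREBP2 sits in the membrane of the endoplasmic reticulum together with SCAP, and when sterols run low it is carried to the Golgi, cut by the proteases S1P and S2P and released to switch on nearly all enzymes of the pathway. INSIG proteins hold the SCAP complex back when sterols are plentiful, and *Insig1* is itself a target of SREBP2. Growing axons and membranes need much cholesterol, and neurons that mature take more of it from glial lipoproteins.

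SREBP2 binds sterol elements near the start of its targets and works there with NF-Y, which binds CCAAT boxes, and with SP1, which binds GC boxes. Promoter windows from 250 bases before to 50 after a start (RefSeq, GRCm38.p6) could be matched for 6 of the 8 members, namely *Hmgcs1*, *Idi1*, *Lss*, *Dhcr7*, *Insig1* and *Srebf2*. The stretches below hold the sterol element found in *Hmgcs1* and the CCAAT boxes that these 6 members have in common. The first is the sterol element of *Hmgcs1* (TCACCCCAC, in capitals), which ends 128 bases before the start.
*Hmgcs1*, chr13:119690204-119690232, plus strand: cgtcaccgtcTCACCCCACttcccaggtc
The others each show a CCAAT box, also in capitals, which reads ATTGG where the box lies on the other strand. It is the box nearest to the start among those whose printed stretch lies wholly before the start. The windows of *Hmgcs1* and *Idi1* hold a further box nearer to the start or after it, which is not shown. *Dhcr7* has 3 starts in the RefSeq table and only the third had the box.
*Hmgcs1*, chr13:119690294-119690322, plus strand: tccccgcctctcATTGGctgaaagcggat
*Idi1*, chr13:8885549-8885577, plus strand: tgcctccagctgATTGGcgagcccgggca
*Lss*, chr10:76531531-76531559, plus strand: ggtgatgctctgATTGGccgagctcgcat
*Dhcr7*, chr7:143830153-143830181, plus strand: aatccacttccgATTGGtcgtctgtgacc
*Insig1*, chr5:28071184-28071212, plus strand: cgccctcctcccATTGGctccggcggcct
*Srebf2*, chr15:82147122-82147150, plus strand: cttcgcgcgccgATTGGctaatgcaagcc
In GENCODE M21 the stretches of *Dhcr7* and *Idi1* overlap exons of these genes, since other transcripts start before them, and the rest lie upstream of any annotated exon. The box shown ended 40 bases before the start in *Hmgcs1* and *Idi1*, 44 in *Dhcr7*, 57 in *Lss*, 130 in *Srebf2* and 211 in *Insig1*. CCAAT was found, on either strand, in all 6 of these members and GGGCGG, the core of the GC box, in all 6 as well. Of the 10401 genes tested here that have a window in the table, 43.2% held CCAAT, 69.1% held GGGCGG and 27.4% held both. Among the other enzymes of the pathway that could be matched, 11 of 13 held CCAAT and 12 of 13 held GGGCGG. The exact letters TCACCCCAC were found in *Hmgcs1* alone among the 6 members, and in 0.711% of the genes tested. TCACNCCAC, in which N is any base, was likewise found in *Hmgcs1* alone of the 6. Sterol elements with other letters were not searched, so the other members may hold them. GGGAGGG, a G-rich run of the kind that zinc finger proteins such as MAZ and PATZ1 are known to bind, was found in *Lss* only, against 33.0% of the genes tested, and in 0 of the 13 other enzymes. No binding data were used here, and a match describes the letters only.

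Values are given as CPM, the counts per 1000000 counts of a library after scaling with TMM. A gene was called changed when edgeR's quasi-likelihood F test gave it a Benjamini-Hochberg adjusted p below 0.05 over the 14269 genes tested, and fold changes are *Patz1* KO over WT. The total count per library went from 14769104 to 23881522. *Patz1* itself was counted 1363 and 1499 times in the WT libraries and 1154 and 714 times in the KO libraries, or 92.9 ± 1.96 against 45.1 ± 3.56 CPM (SD, n = 2), so its RNA was lower but still present in the KO libraries (log2 fold change -1.04, SE 0.0951). A CRISPR lesion need not remove the RNA, and the counts per gene do not show the lesion. Over all genes, 47.9% were called changed, with 24.1% higher and 23.8% lower, and the median size of a change was 0.34 on the log2 scale.

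The cholesterol genes of *Patz1* KO MNs changed little and not all in the same direction. Of the 8 members, which all passed the filter on low counts, 3 were lower (*Idi1*, *Insig1* and *Fdps*), 1 was higher (*Dhcr7*) and 4 were not called (*Hmgcs1*, *Sqle*, *Lss* and *Srebf2*). This is 4 of 8 against 47.9% of all genes, so the share of members called was close to the share of all genes. The median log2 fold change of the members was -0.17, against -0.0014 over all genes tested, and the median size was 0.24. No member changed by a log2 fold change of 1 or more, compared with 13.7% of all genes. The libraries of the groups did not overlap for 6 of the 8 members, compared with 74.2% of all genes. Summed over the members, the level was 1904 and 1910 CPM in WT and 1667 and 1625 CPM in *Patz1* KO, a ratio of 0.863. *Hmgcs1* was the largest term of the sum, with 900 CPM on average in WT. In RNA from a whole culture, fewer cells of a type and less RNA per cell cannot be told apart.

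**Figure D1:**
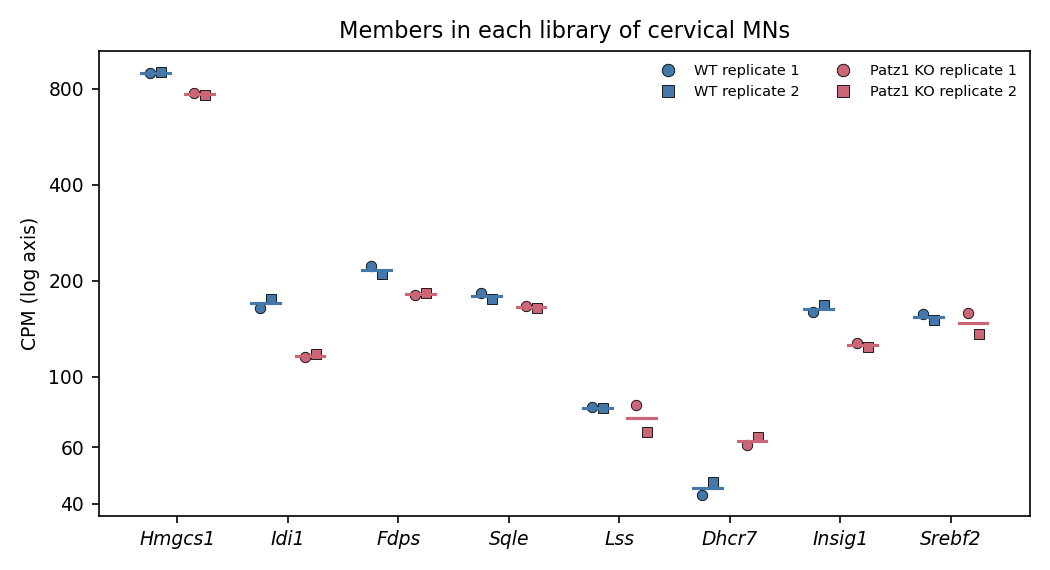
Level of each of the 8 members in CPM (log axis) in the 2 WT libraries (blue) and the 2 *Patz1* KO libraries (red), with bars at the group means. *Idi1*, *Fdps*, *Insig1*, *Hmgcs1* and *Sqle* sit lower in both KO libraries than in both WT libraries, *Dhcr7* sits higher (60.9 and 64.5 against 42.7 and 46.7 CPM), and the groups overlap for *Lss* and *Srebf2*.

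Divided by exon length, the members ranged from intermediate to very high expression. *Hmgcs1* had 258 ± 2.03 CPM per kb of exon in WT (SD, n = 2), at percentile 98.5 of the genes tested, and was followed by *Fdps* with 149 ± 6.55. *Sqle* (65.0 ± 1.73), *Insig1* (60.6 ± 2.16) and *Idi1* (56.1 ± 2.57) came next and lay close together, though their libraries did not overlap. *Srebf2* stood at 30.3 ± 0.848 CPM per kb, *Lss* at 17.1 ± 0.0923 and *Dhcr7* at 13.5 ± 0.848, the last at percentile 66.2. In *Patz1* KO the order was the same except for its last places, where *Dhcr7* (18.9 ± 0.765 CPM per kb) passed *Lss* (16.0 ± 2.19).

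*Hmgcs1* codes for the cytosolic HMG-CoA synthase, which acts at the entry of the pathway. The gene lies at chr13:119690379-119708260 on the plus strand (GENCODE M21, GRCm38) and had 13326 and 14384 counts in the WT libraries against 18793 and 12883 in the deeper KO libraries. This gave 895 and 905 CPM in WT and 775 and 768 CPM in *Patz1* KO, so both KO libraries lay below both WT libraries. The log2 fold change was -0.22 (SE 0.105, 95% interval -0.44 to -0.00074), which edgeR's quasi-likelihood F test did not call over all genes (Benjamini-Hochberg adjusted p = 0.0907). It stood near the threshold, since DESeq2's Wald test called it (log2 fold change -0.21, adjusted p = 0.0493). The edgeR test also called it with either *Patz1* KO library left out. There the log2 fold change was nearly the same (-0.22 without replicate 1 and -0.21 without replicate 2) and the SE was smaller. In these fits the KO group was assumed to vary like WT, so these calls do not show a larger change.

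*Idi1* codes for isopentenyl diphosphate isomerase, which turns isopentenyl diphosphate into the dimethylallyl form from which longer isoprenoids grow. It lies at chr13:8885501-8892451 on the plus strand. WT libraries held 2448 and 2788 of its reads and KO libraries 2790 and 1974, or 164 and 175 CPM against 115 and 118 CPM. *Idi1* was thus lower in both KO libraries, and it fell by 31.5% (log2 fold change -0.55, SE 0.0856, edgeR's quasi-likelihood F test, Benjamini-Hochberg adjusted p = 4.82e-05). This was the largest decrease among the members, yet 68.0% of all genes tested moved by less. Of the 50-base stretches in its transcripts, 25.3% are shared with other annotated genes, among them *Gm13502* and *Gm48574*, which overlaps an exon on the other strand. How reads of these stretches were counted is not given in the sources used here.

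*Fdps* codes for farnesyl diphosphate synthase, whose product feeds squalene and also the prenylation of proteins. It lies at chr3:89093588-89101959 on the minus strand. The level was 223 and 210 CPM in WT and 181 and 183 CPM in *Patz1* KO, from 3322, 3332, 4387 and 3071 counts. *Fdps* was lower in both KO libraries and fell by 15.8% (log2 fold change -0.25, SE 0.0859, edgeR's quasi-likelihood F test, Benjamini-Hochberg adjusted p = 0.0235). The call rested on having both WT libraries, since it was lost without WT replicate 1 (log2 fold change -0.20, adjusted p = 0.302 in the same edgeR test) and without WT replicate 2 (-0.29, adjusted p = 0.136). Other genes shared 26.2% of its 50-base stretches, and *Gm43738* overlaps its exons on the same strand.

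*Sqle* codes for squalene epoxidase, an oxygen-dependent and rate-limiting step after the commitment to sterols. The gene lies at chr15:59315077-59331192 on the plus strand and had 183 and 176 CPM in WT and 167 and 164 CPM in *Patz1* KO. The KO libraries were both lower, though the difference was small, with a log2 fold change of -0.12 (95% interval -0.29 to 0.062). EdgeR's quasi-likelihood F test did not call it (Benjamini-Hochberg adjusted p = 0.274).

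*Lss* codes for lanosterol synthase, which closes the rings to give the first sterol. It lies at chr10:76531588-76557138 on the plus strand and had 80.3 and 79.7 CPM in WT and 81.7 and 67.3 CPM in *Patz1* KO. The KO libraries lay on both sides of the WT libraries, and their ratio of 1.21 (replicate 1 over replicate 2) was the widest gap between replicates among the members. The log2 fold change was -0.10 (95% interval -0.31 to 0.11, edgeR's quasi-likelihood F test, Benjamini-Hochberg adjusted p = 0.434). It depended on which KO library was kept: it was -0.25 and called without *Patz1* KO replicate 1 (adjusted p = 0.0241 in the same edgeR test) and 0.036 without *Patz1* KO replicate 2 (adjusted p = 0.756).

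*Dhcr7* codes for 7-dehydrocholesterol reductase, the last step of the branch that ends in cholesterol itself, and its loss in humans causes Smith-Lemli-Opitz syndrome. The gene lies at chr7:143823145-143848410 on the plus strand. WT libraries held 636 and 742 of its reads and KO libraries 1477 and 1082, or 42.7 and 46.7 CPM against 60.9 and 64.5 CPM. *Dhcr7* was the only member to rise, and both KO libraries lay above both WT libraries. The increase was 40.2% (log2 fold change 0.49, SE 0.0970, edgeR's quasi-likelihood F test, Benjamini-Hochberg adjusted p = 0.000476). No more than 1.37% of its 50-base stretches were shared with other genes.

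*Insig1* codes for the protein that retains SCAP and SREBP2 in the endoplasmic reticulum, and its RNA follows SREBP2 activity in many cells. It lies at chr5:28071363-28078662 on the plus strand and had 159 and 167 CPM in WT and 128 and 124 CPM in *Patz1* KO. Both KO libraries were lower, and *Insig1* fell by 22.9% (log2 fold change -0.38, SE 0.0850, edgeR's quasi-likelihood F test, Benjamini-Hochberg adjusted p = 0.00141). Without WT replicate 2 the log2 fold change was -0.33 and the same edgeR test no longer called it (adjusted p = 0.0645). *Srebf2*, at chr15:82147181-82205379 on the plus strand, had 157 and 151 CPM in WT and 159 and 136 CPM in *Patz1* KO. Its KO libraries enclosed the WT libraries, and its log2 fold change was -0.06 (95% interval -0.25 to 0.13, edgeR's quasi-likelihood F test, Benjamini-Hochberg adjusted p = 0.616), or 0.051 without *Patz1* KO replicate 2. The microRNA gene *Mir33*, which lies within an intron of *Srebf2*, had 0 counts in all 4 libraries, which allows up to 3 counts in each.

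**Figure D2:**
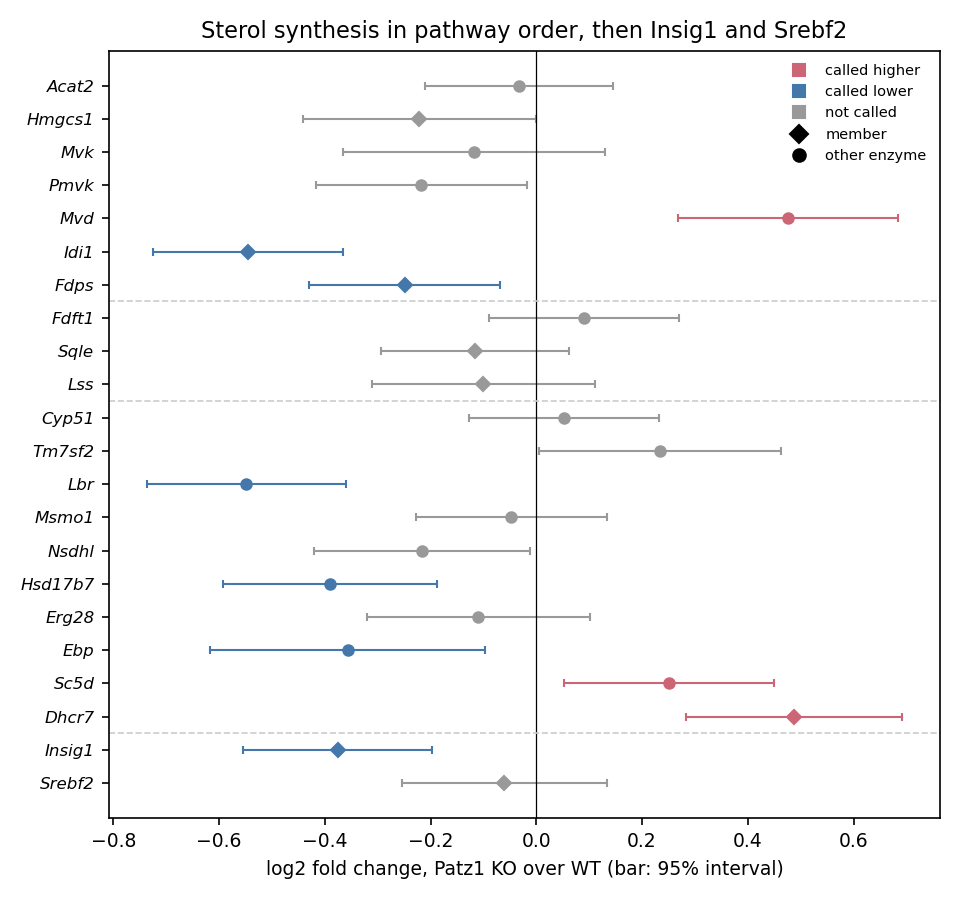
Log2 fold change of *Patz1* KO over WT for 20 of the 22 enzymes of sterol synthesis in the order of the pathway and for *Insig1* and *Srebf2*, with 95% intervals as bars, diamonds for members and circles for other enzymes. The dashed lines part the mevalonate, squalene and sterol stages. Of the 20 enzymes plotted, 3 were called higher (red), 5 lower (blue) and 12 were not called (grey). Over all 22 enzymes 40.9% were called, against 47.9% of all genes. The mevalonate and sterol stages each hold called changes of both signs.

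The other enzymes, listed from general knowledge of the pathway, did much the same as the members. Of 16 tested, 2 were higher, 4 were lower and 10 were not called, with a median log2 fold change of -0.11. This is 37.5% called, against 47.9% of all genes. *Mvd*, the decarboxylase just before *Idi1*, rose (55.5 and 47.8 CPM in WT, 73.4 and 70.1 CPM in *Patz1* KO, log2 fold change 0.48, edgeR's quasi-likelihood F test, Benjamini-Hochberg adjusted p = 0.000706). *Sc5d*, the desaturase that makes the substrate of *Dhcr7*, rose from 44.6 and 44.8 CPM to 53.2 and 53.3 CPM (log2 fold change 0.25, adjusted p = 0.0359 in the same edgeR test). Those that were lower act after lanosterol. *Lbr*, a sterol reductase that is also a receptor of the nuclear lamina, fell from 128 and 134 CPM to 84.9 and 94.4 CPM (log2 fold change -0.55, adjusted p = 7.16e-05 in the same edgeR test), and *Tm7sf2*, which carries out the same reduction, had a log2 fold change of 0.23 and was not called (adjusted p = 0.0851 in the edgeR test), except without WT replicate 1 (0.39), without *Patz1* KO replicate 2 (0.27) and with the replicate number as a block (0.23). *Hsd17b7* (-0.39) and *Ebp* (-0.36) fell as well.

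Several of these calls were lost in fits with 1 WT library, which also called fewer of all genes than the fit of all 4 libraries. *Sc5d* (0.25 and 0.26, against 0.25 with all libraries) and *Ebp* (-0.40 and -0.30) lost their calls with either WT library left out. Both also lost them in DESeq2's Wald test. *Sc5d* was not called with library size as the only scaling either (log2 fold change 0.22, adjusted p = 0.0982 in the edgeR test). *Hsd17b7* lost its call without WT replicate 1 (log2 fold change -0.31, adjusted p = 0.0921 in the edgeR test). *Mvd* and *Lbr* kept theirs with any 1 library left out.

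By stage, the summed level of the 8 enzymes up to *Fdps* was 2001 and 1995 CPM in WT and 1766 and 1728 CPM in *Patz1* KO, a ratio of 0.874, with 1 enzyme higher and 2 lower. The 3 enzymes around squalene (*Fdft1*, *Sqle* and *Lss*) summed to 440 and 426 CPM in WT and 438 and 411 CPM in *Patz1* KO, and none of them passed edgeR's quasi-likelihood F test, adjusted or unadjusted, or DESeq2's Wald test over the 4 libraries (*Lss* alone was called without *Patz1* KO replicate 1, as given above). The 11 enzymes after lanosterol had a ratio of 0.929, with 2 higher and 4 lower. For all 22 enzymes the ratio was 0.904, so the sum differed by less than that of the members. Of these 22, 40.9% were called, against 47.9% of all genes.

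Because a ratio of counts within a library needs no scaling between libraries, pairs of genes that moved apart were also compared in that way. The pairs were chosen after their values were seen and are given with no test. *Dhcr7* had 0.260 and 0.266 counts for each count of *Idi1* in WT and 0.529 and 0.548 in *Patz1* KO, a change of 2.05 times. Since *Dhcr7* was higher and *Idi1* lower in *Patz1* KO, their ratio had to move by more than either level. *Mvd* over *Idi1*, which are neighbouring steps, went from 0.338 and 0.273 to 0.638 and 0.596. *Hmgcs1* over *Srebf2* changed least, from 5.70 and 5.99 to 4.88 and 5.64, and *Insig1* over *Srebf2* went from 1.01 and 1.11 to 0.804 and 0.911.

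Of 13 genes tested that set the activity of SREBP2 or act on its partners, 4 were higher, 1 was lower and 8 were not called. The share called was 38.5%, against 47.9% of all genes. *Insig2*, which holds SCAP back as *Insig1* does but is not induced by SREBP2, rose from 19.4 and 21.5 CPM in WT to 32.3 and 32.8 CPM in *Patz1* KO (log2 fold change 0.67, SE 0.112, edgeR's quasi-likelihood F test, Benjamini-Hochberg adjusted p = 9.54e-05). It thus moved opposite to *Insig1*, and the count ratio of *Insig2* over *Insig1* went from 0.122 and 0.128 to 0.253 and 0.264. *Mbtps2*, which codes for the protease S2P, had 28.0 and 27.6 CPM in WT and 59.9 and 63.6 CPM in *Patz1* KO (log2 fold change 1.15, adjusted p = 5.01e-08 in the same edgeR test), while *Mbtps1*, for S1P, had 230 and 231 CPM against 234 and 211 CPM and was not called (adjusted p = 0.644 in the edgeR test). *Mbtps2* shares exon sequence with *Yy2* on the same strand, which the counts per gene cannot part from it. *Rnf145*, a ubiquitin ligase that acts on SCAP, rose (log2 fold change 0.37, adjusted p = 0.00206 in the edgeR test), and *Scap* (0.08) and *Srebf1* (-0.18) were not called. These values depended on *Patz1* KO replicates, since *Srebf1* was called lower without replicate 1 (-0.31) and *Scap* higher without replicate 2 (0.23) but at -0.090 without replicate 1.

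Of 16 genes of sterol uptake and transport, 6 were higher and 2 lower, a share of 50% against 47.9% of all genes. The median size of a change was 0.49 on the log2 scale, against 0.22 for the 22 enzymes. Receptors of apolipoproteins were among those that rose. *Vldlr* went from 127 and 126 CPM to 214 and 252 CPM (log2 fold change 0.88), and *Lrp8*, the receptor of APOE and reelin, from 72.5 and 70.0 CPM to 126 and 112 CPM (0.74). *Gramd1a*, which carries cholesterol from the plasma membrane to the endoplasmic reticulum, had the smallest p of the list and rose from 97.7 and 93.3 CPM to 218 and 196 CPM (1.11).

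Genes of efflux, storage and sterol sensing by LXR were 5 higher and 2 lower of 14 tested (50% called, against 47.9% of all genes). *Apoe*, which codes for the main apolipoprotein of the brain, rose from 10.5 and 9.31 CPM to 21.8 and 25.1 CPM (log2 fold change 1.24). *Cyp46a1*, which turns cholesterol into the form that leaves neurons, rose from 3.42 and 3.02 CPM to 6.56 and 6.92 CPM (1.06). *Soat2*, which stores cholesterol as ester, was lower (8.80 and 5.41 against 1.90 and 4.59 CPM, log2 fold change -1.19) but was not called with robust estimation or without WT replicate 1 (-0.79, adjusted p = 0.0560 in edgeR's quasi-likelihood F test, Benjamini-Hochberg). Its size rested on single *Patz1* KO libraries, at -0.62 without replicate 1 and -1.89 without replicate 2. The exporter *Abca1*, a target of LXR, was at the threshold (-0.25, adjusted p = 0.0495 in the same edgeR test) and was not called in 9 of 14 other settings. In fatty acid synthesis, which SREBP1 chiefly controls, 4 of 15 were higher and 4 lower (53.3% called), with *Scd1* down (-0.99) and *Lpin1* (0.97) and *Acss2* (0.86) up. Of 15 genes in the isoprenoid branches that leave the pathway at or near *Fdps*, 2 were higher and 2 lower (26.7% called). *Fnta*, a subunit of farnesyltransferase, rose (0.41), and *Pggt1b* (-0.41) and *Zmpste24* (-0.33) fell, though *Pggt1b* was not called without WT replicate 2 (-0.39) and *Zmpste24* without either WT library (-0.31 and -0.35).

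**Figure D3:**
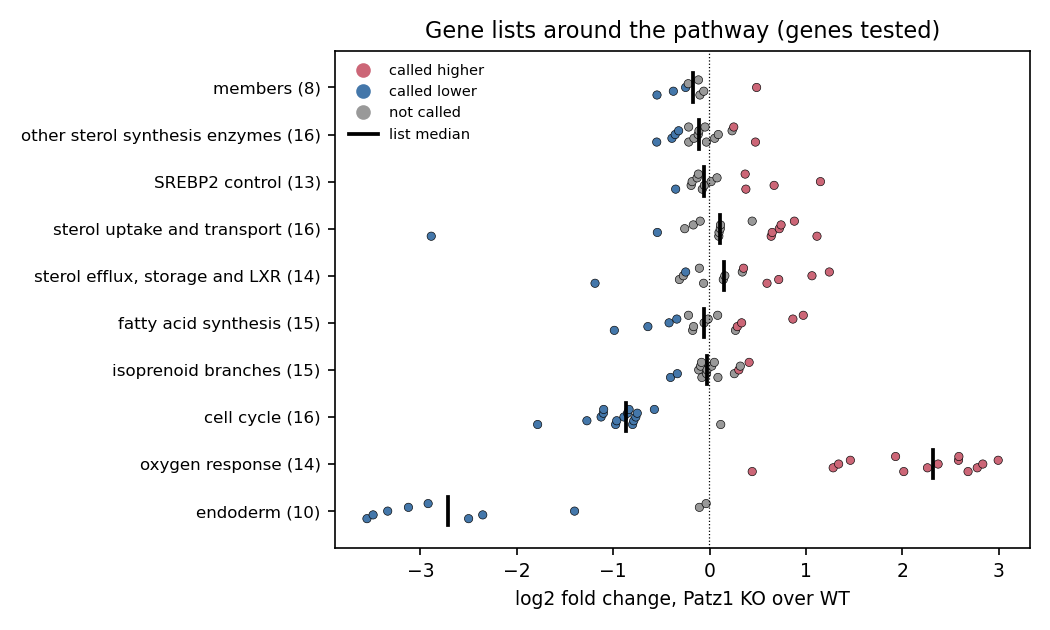
Log2 fold change of each gene tested, by list, with the list median as a black bar and the number of genes in brackets, red for called higher, blue for called lower and grey for not called. The dotted line is the median over all genes. All members (median -0.17) and other enzymes (-0.11) lie within 0.6 of 0. The medians of the cell cycle (-0.87), oxygen response (2.32) and endoderm (-2.71) lists lie further out, though each list has genes within 0.6 of 0.

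Markers of cell types differed between the genotypes in the same libraries, in which 47.9% of all genes were called. The 10 MN markers summed to 734 to 776 CPM in WT and 930 to 1011 CPM in *Patz1* KO, with 7 called higher and 1 lower, and the pluripotency markers, of which *Utf1* was at 0, to 10.5 to 14.4 and 7.14 to 8.94 CPM. Progenitor markers went from 1844 to 1902 CPM in WT to 1117 to 1145 CPM in *Patz1* KO (3 higher and 5 lower of 10), and 15 of 16 cell cycle genes were lower (3151 to 3304 against 1757 to 1775 CPM). *Top2a* (653 and 335 CPM on average in WT and *Patz1* KO) and *Mki67* (365 and 167 CPM) stand in both lists. They held most of the fall of the progenitor sum. Glial markers went from 585 to 597 CPM to 877 to 949 CPM, with 4 higher and 1 lower of 7. Most of that sum was *Fabp7*, at 446 and 712 CPM on average in WT and *Patz1* KO, while *Mbp* was not called (log2 fold change 0.014) and *Pdgfra*, named after its value was seen, fell (-3.96). Endoderm markers (8 of 10 lower) went from 73.5 to 82.5 CPM to 14.0 to 14.5 CPM, and those of mesenchyme and vessels (6 of 7 lower) from 120 to 132 CPM to 17.9 to 18.9 CPM. Neuron markers (5 higher and 1 lower of 10) went from 4584 to 4886 CPM to 6513 to 6871 CPM. All 14 genes of the oxygen response that were tested were higher, and they summed to 783 to 799 CPM in WT and 3107 to 4007 CPM in *Patz1* KO. The part of these shifts in the values of *Idi1*, *Insig1*, *Fdps* and *Dhcr7* was not tested.

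**Figure D4:**
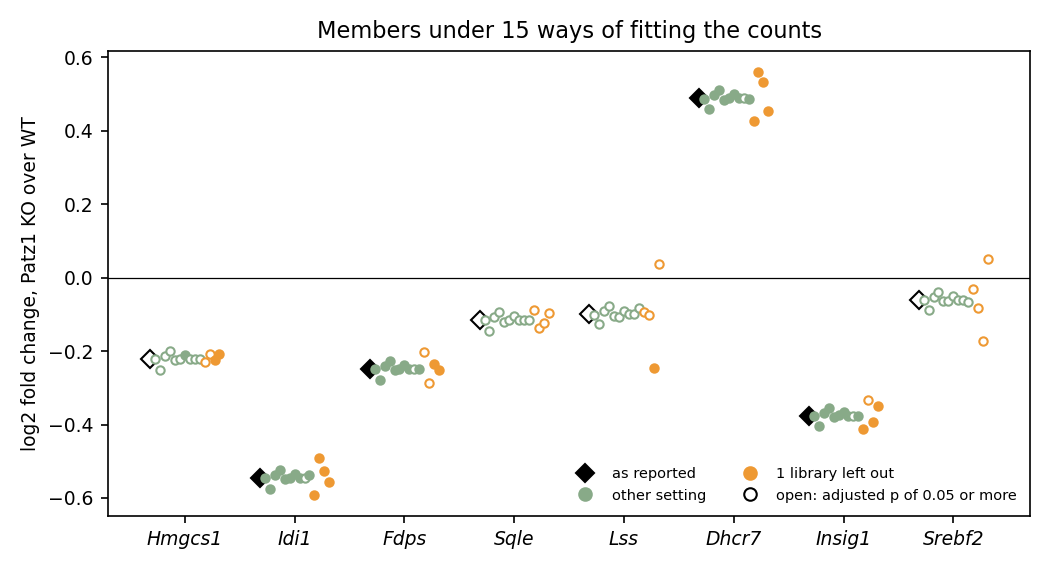
Log2 fold change of each member as reported (black diamond), under 10 other settings (green) and with each of the 4 libraries left out (orange), with open symbols where the adjusted p was 0.05 or more. *Idi1* stays between -0.59 and -0.49 and *Dhcr7* between 0.43 and 0.56, while *Lss* and *Srebf2* cross 0 when *Patz1* KO replicate 2 is left out.

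Over the 4 libraries, the genes outside the list whose centred log2 CPM lay nearest to the mean profile of the members were *Slc35b3* (Euclidean distance 0.0134), *Gdpgp1* (0.0192), *Zbtb39* (0.0194), *Mfsd1* (0.0196) and *Dnajb11* (0.0210), none of them an enzyme of the pathway. Their log2 fold changes went from -0.17 to -0.15, a narrow range that follows from how they were picked. The mean profile also averages members that moved in opposite directions. With 4 libraries in 2 groups, these distances rest on few points.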

How the data were processed

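RNA-seq of 2 WT and 2 *Patz1* KO libraries of cervical MNs was analysed. The authors deposited raw counts of reads per gene symbol on mm10, without normalization, and the submitters' processing notes name TopHat2 2.1.1, Bowtie2 2.3.1, featureCounts 1.6.2 and DESeq2. The annotation and the strand setting of the counting are not given in the sources used here. The libraries are stranded. No line without a gene name was found.

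Counts were filtered with filterByExpr (minimum count 10), which left 14269 genes, scaled with TMM and compared with edgeR's quasi-likelihood test (edgeR 4.0.16, limma 3.58.1, R 4.3.3) with Benjamini-Hochberg adjustment over these genes, two-sided, at a threshold of 0.05. Standard errors were derived from the log2 fold change and the square root of F. The common biological coefficient of variation was 7.71%. Replicates differed by more than sampling noise (chi-square per gene 9.87 in WT and 22.0 in *Patz1* KO). With 2 against 2 libraries, exact permutation of 1 gene cannot give less than p = 0.333, and was not used. By the study's methods, biological replicates were separate differentiations, which the labels do not state for single libraries.

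The members and gene lists were chosen with earlier results of these data known. Named were *Patz1*, the members, the other enzymes, *Insig2*, *Scap*, *Mbtps1*, *Mbtps2*, *Srebf1*, *Mir33*, *Abca1*, the 3 genes of the smallest p of each other pathway list, the 3 most abundant markers of a list at most, and the 5 genes nearest in profile. A few genes counted in the lists are not reported here by themselves. *Msmo1* and *Erg28* were found under older symbols. Positions, exon lengths and overlaps came from GENCODE M21 (GRCm38, the assembly of mm10), where 23032 of 23420 symbols were matched, and shared stretches of 50 bases from its transcripts. Motifs were searched on both strands of the RefSeq windows, each by itself, so matches of different motifs could share letters. The alternatives were scaling by DESeq2's size factors, by library size or by TMM with the 20 most counted genes taken out, other count filters, a replicate block, the Wald test of DESeq2 (1.42.0), robust estimation, a minimum log2 fold change of 0.5, thinning to the smallest library and leaving out each library. The test was checked on simulated counts. Tables and plots were made with pandas and matplotlib in Python.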

Additional observations from a re-analysis of the deposited data

How the results depend on the processing

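No scaling changed the direction of a member. With a minimum log2 fold change of 0.5 (edgeR's glmTreat), 2314 genes were called, 16.2% of those tested (3301 at an unadjusted p below 0.05). Among them were 0 members, 0 other enzymes and 0 isoprenoid genes (0 of each also at an unadjusted p below 0.05), 1 of the SREBP2 control list, 4 of uptake and 3 each of efflux and fatty acid synthesis. *Fdps* (-0.25), *Idi1* (-0.55), *Dhcr7* (0.49) and *Insig1* (-0.38) lost their calls. DESeq2's Wald test called 5118 of 15805 genes (32.4%) and 5 members, *Hmgcs1* (-0.21) among them, and 3 efflux and 2 isoprenoid genes. Leaving out each library in turn gave 4521 to 7816 genes called in all, 2 to 6 members, 3 to 8 other enzymes, 4 to 7 efflux genes, 5 to 9 of fatty acid synthesis and 1 to 5 isoprenoid genes, with the lowest of these without WT replicate 2. Over these fits the log2 fold change went from -0.23 to -0.21 for *Hmgcs1*, -0.29 to -0.20 for *Fdps*, -0.25 to 0.036 for *Lss*, -0.41 to -0.33 for *Insig1* and -0.17 to 0.051 for *Srebf2*. Other genes that changed sign when a *Patz1* KO library was left out were *Acat2* (-0.061 to 0.0064), *Msmo1* (-0.097 to 0.012), *Scap* (-0.090 to 0.23), *Mvk* (-0.31 to 0.055) and *Mbtps1* (-0.13 to 0.025). The cause was not tested. A group left with 1 library was assumed to vary like the other. Fewer members were called without either WT library than without either *Patz1* KO library, and the same held for all genes. The range of members called therefore does not by itself show that the members were less stable than other genes. The deviations of same-numbered replicates correlated with r = 0.030 over genes, so the numbers were not taken as pairs. With the replicate block, 7361 genes (51.6%) and 4 members were called, and *Pmvk* (-0.22) and *Tm7sf2* (0.23) were added.

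Depth did not limit the members, which had 636 to 18793 counts.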
